A study of Homo sapiens with 16 samples.

Results

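SNORD116 and SNORD115 are 2 families of small nucleolar RNAs (snoRNAs) that lie in tandem copies in the imprinted region 15q11 of the human genome. The members were the entries of a snoRNA table whose names start with SNORD116 or SNORD115, 56 of 413 entries, with 30 of SNORD116 and 26 of SNORD115. Small RNA was sequenced from PC3, a cell line from a bone metastasis of prostate cancer, and from MDA-MB-231, a triple-negative breast cancer cell line. Both lines are labelled wild type, epithelial and untreated. For each line there were 2 libraries of the cells and 2 libraries each of extracellular vesicles (EVs) isolated from conditioned medium by next-gen ATPS (an aqueous two-phase system followed by dextranase), by ultracentrifugation (UC) and by the exoRNeasy column kit, 16 libraries in all. The cells grew in DMEM with fetal bovine serum, and the cells that gave the EVs were kept without serum before the medium was taken. The UC libraries are labelled VC and were read as UC, since no other method is named. No label tells whether both libraries of a group stem from independent cultures, and the p-values thus rest on a spread between libraries that may be technical.

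A C/D box snoRNA carries a C box near its 5′ end and a D box near its 3′ end, and most of the class guide 2′-O-methylation of ribosomal RNA. SNORD116 and SNORD115 have no established ribosomal target. They are processed from introns of SNHG14, a long transcript that starts at SNRPN and is made from the paternal chromosome, and loss of the paternal SNORD116 copies is central to Prader-Willi syndrome. SNORD115 is known as a brain RNA, while SNORD116 is found in brain and, at lower levels, in other tissues.

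On hg38, GENCODE v44 places SNHG14 on the plus strand of chromosome 15, chr15:24978583-25420336. Its 30 numbered SNORD116 copies span chr15:25051477-25108352 and its 48 numbered SNORD115 copies span chr15:25170723-25269858. Of these, 29 and 26 were in the table, and the copy SNORD116-28 was not analysed here. SNORD116 copies are 83 to 102 bases long, and 4 of the 30 lie in introns of every SNHG14 transcript, while the other copies overlap an exon of at least 1 annotated SNHG14 transcript. The entry named SNORD116 without a copy number belongs to genes annotated on chromosomes 1, 9 and 13, outside 15q11.

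The copy with the highest mean TPM over the 16 libraries in each group of SNORD116 copies, and 1 SNORD115 copy with reads in both PC3 cell libraries, are shown 5′ to 3′ with the C box and the D box in capitals. The groups are I for copies 1 to 9, II for copies 10 to 24 and III for copies 25 to 30. All lie on the plus strand at chr15:25056860-25056954, chr15:25083588-25083679, chr15:25097663-25097754 and chr15:25189414-25189495 in that order.
SNORD116-3: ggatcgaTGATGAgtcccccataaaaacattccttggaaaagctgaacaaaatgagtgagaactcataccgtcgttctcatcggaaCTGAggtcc
SNORD116-17: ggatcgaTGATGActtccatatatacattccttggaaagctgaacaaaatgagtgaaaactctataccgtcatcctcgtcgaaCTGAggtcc
SNORD116-25: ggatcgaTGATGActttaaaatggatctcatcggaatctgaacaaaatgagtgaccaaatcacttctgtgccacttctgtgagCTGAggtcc
SNORD115-11: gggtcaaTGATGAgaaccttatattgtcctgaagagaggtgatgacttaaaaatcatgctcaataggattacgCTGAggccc
The letters TGATGA in the first 20 bases together with CTGA in the last 15 bases were found on the plus strand of the gene in 28 of 30 SNORD116 copies and 40 of 48 SNORD115 copies. They were found together in 126 of 230 other SNORD genes of GENCODE, 54.78%.

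The values are the authors' TPM, which hold no length term and are a library's reads of an entry scaled to a fixed total of snoRNA reads, and every value converts back to whole reads. The libraries held 16635 to 10849128 snoRNA reads. The shallowest was MDA-MB-231 cells replicate 2, with 16635 reads against 3900437 in replicate 1, and 1 read was worth 60.1 TPM there and 0.256 TPM in replicate 1. Entries with the same sequence carry the same value and no fractional reads appear, so a read that matches several copies may count for each of them. How such reads were weighted could not be worked out, and a sum over entries is not taken as a number of distinct reads. Only short reads were kept by the study, so a read covers part of a snoRNA. Of the 6 epithelial miRNAs looked up as markers, 3 had a row in the miRNA values. Their summed TPM was 112.9 to 174.3 in PC3 cells and 0 to 135.2 in MDA-MB-231 cells, and miR-141-3p, miR-429 and miR-205-5p had no row. Of 4 neuronal miRNAs, miR-9-5p and miR-128-3p had a row. They summed to 523 to 841.8 TPM in PC3 cells and 0 to 315.6 TPM in MDA-MB-231 cells, and their part in the snoRNA results was not tested.

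SNORD116 had many reads in PC3 cells and was nearly without reads in MDA-MB-231 cells, in sums that may count a read more than once. The 30 entries summed to 25639 and 23868 TPM in PC3 cells replicates 1 and 2, 2.56% and 2.39% of the snoRNA reads counted by entry. In MDA-MB-231 cells they summed to 62.0 and 601 TPM. The replicate 2 value rests on 2 reads in each of 5 entries, SNORD116-17 and the 4 that differ from it little or not at all. The group means differed 74.7-fold, a log2 ratio of -6.22, and the log2 ratio was -8.64 without MDA-MB-231 cells replicate 2 and -5.36 without replicate 1. A lower share of snoRNA reads can come from less of these RNAs per cell, from fewer cells that make them or from more of other snoRNAs, and these cannot be told apart here.

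Copy by copy, the difference was counted on the log2(TPM + 1) scale with limma over 357 entries that reached 1 TPM in 2 libraries or more, with Benjamini-Hochberg adjustment over all of them. Of the members, 28 passed this filter, all of SNORD116. In MDA-MB-231 cells 25 of the 28 were lower than in PC3 cells and 0 were higher, where 20.2% of all entries tested were lower. edgeR called 27 members, with 22.1% of all entries lower, and DESeq2 called 25, with 17.6%. The median of the members' log2 fold changes was -7.57, beside -0.86 over all entries. All 9 group I copies, 12 of 14 group II copies and all 4 tested group III copies were called. The other 3 members tested were SNORD116-11 with -3.30, SNORD116-12 with -4.57 and the entry without a copy number with -1.35, whose adjusted p-values in limma were 0.102, 0.0971 and 0.611. Of the 25 entries with the lowest log2 fold changes, 21 were SNORD116 copies and 4 were other snoRNAs of SNHG14. Copies that share most of their length may count the same reads, so the calls here and below are not 28 separate observations. SNORD116-14, SNORD116-15, SNORD116-17, SNORD116-19 and SNORD116-20, for example, each had 23 reads in MDA-MB-231 cells replicate 1. With 1 entry per set of equal values, limma called 22 of 25 lower, though entries with nearly equal values remain among them.

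SNORD116-17, which shares its sequence and its values with SNORD116-19, had the highest mean level of the members, 1430 TPM, and stood at rank 71 of 413 entries. It was read 8997 and 25268 times in PC3 cells, 2531 and 2329 TPM. In MDA-MB-231 cells it had 23 reads in replicate 1, 5.90 TPM (exact 95% binomial interval 3.74 to 8.85), and 2 reads in replicate 2, 120 TPM (interval 14.6 to 434). These intervals cover counting error only. The shares of the 2 MDA-MB-231 libraries differed beyond counting error (Fisher's exact test, two-sided, p = 0.00507), but both lay far under the PC3 libraries, so the lines did not overlap. The log2 fold change was -6.39 ± 0.92 (SE, n = 2 libraries per group, limma adjusted p = 9.14e-05). Without replicate 2 it was -8.46 and without replicate 1 it was -4.32, with an adjusted p of 5.71e-09 and 1.31e-05.

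SNORD116-3, the leading copy of group I, had the same values as SNORD116-9. Its levels were 2041 and 1882 TPM in PC3 cells and 4.61 TPM, from 18 reads, in MDA-MB-231 cells replicate 1. Replicate 2 had 0 of 16635 reads, which allows up to 180 TPM (3 reads). Replicate 2 was too shallow for its 0 reads to show a lower share than that of replicate 1. Fisher's exact test thus could not decide whether the 2 MDA-MB-231 libraries differed for SNORD116-3. The log2 fold change of -9.69 ± 0.67 (SE, n = 2, limma adjusted p = 6.91e-08) was the lowest in the table and rests in part on that 0. It was -8.45 without replicate 2 and -10.94 without replicate 1. In group III, SNORD116-25 had the highest mean over the 16 libraries, with 336 and 344 TPM in PC3 cells and 1 read, 0.256 TPM, in the deeper MDA-MB-231 library. SNORD116-29 of the same group was higher in PC3 cells, with 387 and 425 TPM, and had 6 reads, 1.54 TPM, in the deeper MDA-MB-231 library.

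For the other copies the deeper MDA-MB-231 cell library gave a view that did not depend on the shallow one. The 17 members with 4 reads or more in it were 164-fold to 429-fold higher in PC3 cells, as mean TPM of the 2 PC3 libraries over the value of that library. SNORD116-24 had the highest of these ratios, 429, and SNORD116-21 the lowest, 164. A further 8 members tested had 0 reads in it, among them SNORD116-27 with 229 and 641 reads in PC3 cells, which was at least 80.3-fold higher in PC3 cells against a floor of 3 reads. The remaining 3 had 1 or 2 reads. The few reads of the deeper MDA-MB-231 library were spread over the groups much as in PC3: groups I, II and III held 39.3%, 57.0% and 3.72% of the SNORD116 sum, and 39.3%, 56.7% and 4.02% in PC3 cells replicate 1.

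**Figure D1:**
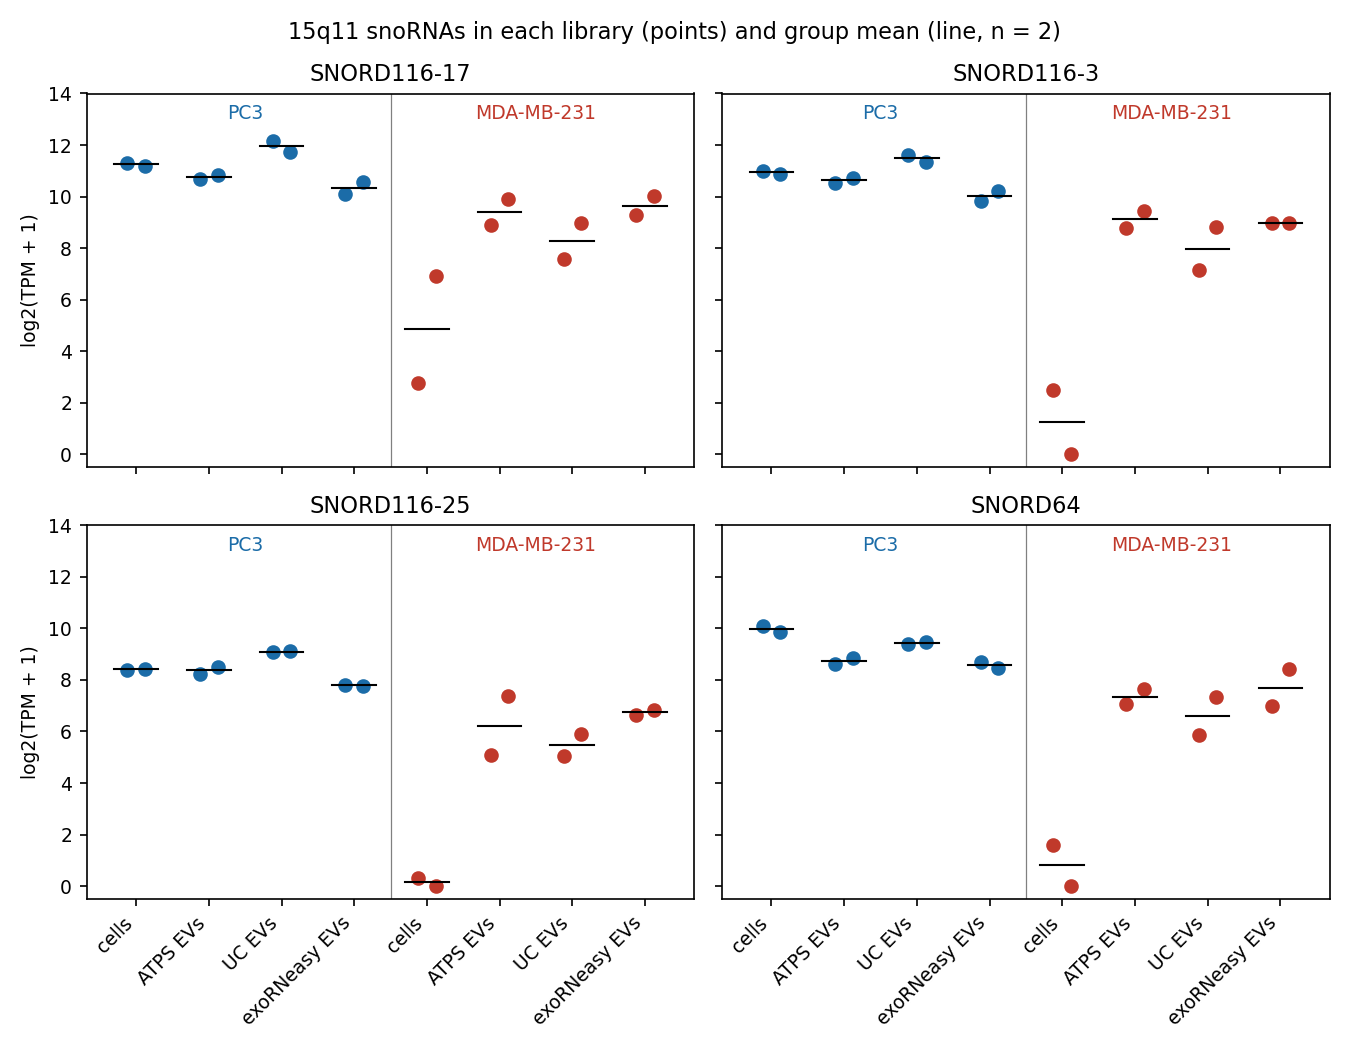
Each point is the log2(TPM + 1) level of SNORD116-17, SNORD116-3, SNORD116-25 or SNORD64 in 1 library, by cell line and material, and each line is the mean of the 2 libraries of a group. For the 3 SNORD116 copies PC3 UC EVs lie above PC3 cells and PC3 exoRNeasy EVs below them. SNORD64 is lower in all 6 PC3 EV libraries than in PC3 cells. For each RNA the MDA-MB-231 cells sit lowest and the MDA-MB-231 EVs lie between.

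In EVs the lines differed in the same direction by less. SNORD116 summed to between 11697 and 44293 TPM in the 6 PC3 EV libraries and to between 1811 and 9309 TPM in the 6 MDA-MB-231 EV libraries, so the lines did not overlap. The means differed 3.88-fold, a log2 ratio of -1.96. Of the 28 members tested, 24 were lower in MDA-MB-231 EVs and 0 were higher, where 18.2% of all entries tested were lower. edgeR called 24 members, with 14% of all entries lower, and DESeq2 called 23, with 20.7%. Their median log2 fold change was -1.95, beside 0.03 over all entries. Those not called were SNORD116-4, SNORD116-11, SNORD116-12 and the entry without a copy number, with log2 fold changes of -1.64, -0.42, -0.66 and -1.46 (adjusted p in limma 0.110, 0.707, 0.664 and 0.174). They had reads in 2, 2, 5 and 0 of the 6 MDA-MB-231 EV libraries, with 1 read at most. With a pseudocount of 0.1 in place of 1, 14 members were called, and the share of all entries called under it is not given.

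SNORD116-17 had 1627 and 1806 TPM in PC3 ATPS EVs, 4598 and 3439 TPM in UC EVs and 1104 and 1531 TPM in exoRNeasy EVs. In MDA-MB-231 it had 476 and 952 TPM in ATPS EVs, 190 and 508 TPM in UC EVs and 616 and 1049 TPM in exoRNeasy EVs. Every PC3 EV library lay above every MDA-MB-231 EV library, though the highest of MDA-MB-231, 1049, came close to the lowest of PC3, 1104. The log2 fold change was -1.90 ± 0.53 (SE, n = 6 libraries per line, limma adjusted p = 0.0137).

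SNORD116-3 did not overlap between the lines either. Its lowest, median and highest levels were 917, 1587 and 3171 TPM in PC3 EVs and 140, 478 and 690 TPM in MDA-MB-231 EVs, a log2 fold change of -2.02 ± 0.39 (SE, n = 6, limma adjusted p = 0.00128). SNORD116-8, a group I copy, ranged from 393 to 1585 TPM in PC3 EVs, with a median of 555, and from 42.5 to 296 TPM in MDA-MB-231 EVs, with a median of 200. In group III, SNORD116-25 ranged from 216 to 552 TPM in PC3 EVs and from 32.5 to 164 TPM in MDA-MB-231 EVs. SNORD116-29 ranged from 186 to 499 TPM and from 37.5 to 181 TPM, so its highest MDA-MB-231 value fell just short of its lowest PC3 value. The largest difference in group I was that of SNORD116-6, at -3.31 ± 0.45 (SE, n = 6, limma adjusted p = 8.72e-05).

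**Figure D2:**
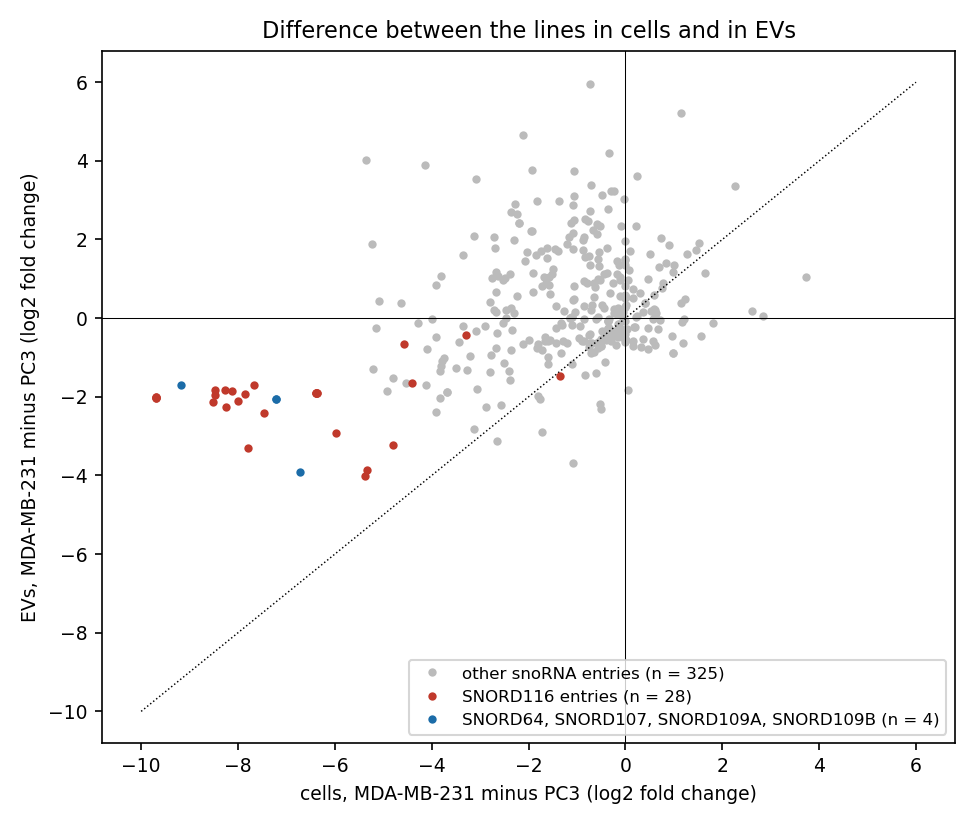
The plot sets the log2 fold change between the lines in cells (x axis, MDA-MB-231 minus PC3) against the same difference in EVs (y axis) for 357 entries, with SNORD116 entries in red and other SNHG14 snoRNAs in blue; the dotted line marks equal values. The 2 differences share no library, and the SNORD116 entries, with medians of -7.57 in cells and -1.95 in EVs, lie at the lower left.

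As a mean of the 3 methods, EVs of PC3 held the members at levels not far from those of the cells, but the methods lay on both sides. The mean SNORD116 share of snoRNA reads counted by entry was 2.48% in PC3 cells. It was 3.95% in UC EVs, 1.84% in ATPS EVs and 1.36% in exoRNeasy EVs. The 28 tested members had 0 calls in either direction, where 20.7% of all entries were called, with 0 at an unadjusted p under 0.05, 1 by edgeR and 0 by DESeq2. For these 3 counts the share of all entries was 30.5%, 36.1% and 38.5%. The median log2 fold change of EVs minus cells was -0.23, beside 0.00 over all entries. SNORD116-17 gave -0.23 with a 95% interval of -1.84 to 1.38, and SNORD116-3 gave -0.22 with an interval of -1.40 to 0.96, so both intervals include changes of either sign. The level between cells and EVs depends on scaling: with TMM factors the median of all entries moved by -1.01, and that of the members went from -0.23 to -1.49.

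In MDA-MB-231 the EVs held far more SNORD116 per snoRNA read than the cells did. Of the 28 members tested, 21 were higher in EVs and 0 lower, where 41.2% of all entries were higher. The median log2 fold change was 4.76, beside 1.56 over all entries. Its size depends on scaling: quantile normalization moved the median of all entries by -2.11 and that of the members from 4.76 to 1.55. With TMM factors the median of the members was 4.29. All but SNORD116-4 were called in group I, 9 of 14 in group II and all 4 tested in group III. SNORD116-17 rose by 4.26 ± 0.75 (SE, n = 2 cell and 6 EV libraries, limma adjusted p = 0.000297), by 6.33 without cells replicate 2 and by 2.19 without cells replicate 1. SNORD116-3 rose by 7.45 ± 0.55 (adjusted p = 3.24e-08), by 6.20 without replicate 2 and by 8.69 without replicate 1. The larger value of SNORD116-3 rests in part on its 0 reads in cells replicate 2, where SNORD116-17 had 2. In TPM over the deeper cell library alone, the 17 members with 4 reads or more there were 35.2-fold to 107-fold higher in the mean of the 6 EV libraries. Among them SNORD116-17 was 107-fold and SNORD116-3 98.9-fold higher.

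The step from cells to EVs differed between the lines. The difference of the 2 steps, MDA-MB-231 minus PC3, was called higher for 20 of the 28 members and lower for 0, where 14.6% of all entries were called higher. Its median was 4.77 for the members and 1.37 for all entries. It was 4.49 ± 1.06 (SE, limma adjusted p = 0.00674) for SNORD116-17 and 7.67 ± 0.78 (adjusted p = 7.27e-06) for SNORD116-3. The larger value of SNORD116-3 rests in part on its 0 reads in MDA-MB-231 cells replicate 2, where SNORD116-17 had 2. The difference of the steps uses the same libraries as the comparisons above and is not a separate observation. With quantile normalization 10 members were called, and the share of all entries called under it is not given. It moved the median of all entries by -1.68 and that of the members from 4.77 to 2.30.

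The reads behind these levels rose with the depth of the EV libraries in MDA-MB-231, by less than in proportion, and not throughout in PC3. SNORD116-17 was read 70 and 75 times in PC3 ATPS EVs, 464 and 324 times in PC3 UC EVs and 59 and 78 times in PC3 exoRNeasy EVs. In MDA-MB-231 it was read 72 and 58 times with ATPS, 76 and 86 times with UC and 69 and 46 times with exoRNeasy. In MDA-MB-231 EVs the reads rose in the order of depth except in the deepest library, from 46 to 86, while snoRNA reads ran from 43868 to 400429. In PC3 the UC libraries were the deepest EV libraries and held the most reads, and there depth and method cannot be told apart. The ATPS and exoRNeasy libraries of PC3, with 41519 to 53435 snoRNA reads, had 75, 70, 78 and 59 reads in order of depth. The lowest level among EVs, 190 TPM, came from the deepest EV library, MDA-MB-231 UC replicate 1. The part of depth in this was not tested.

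**Figure D3:**
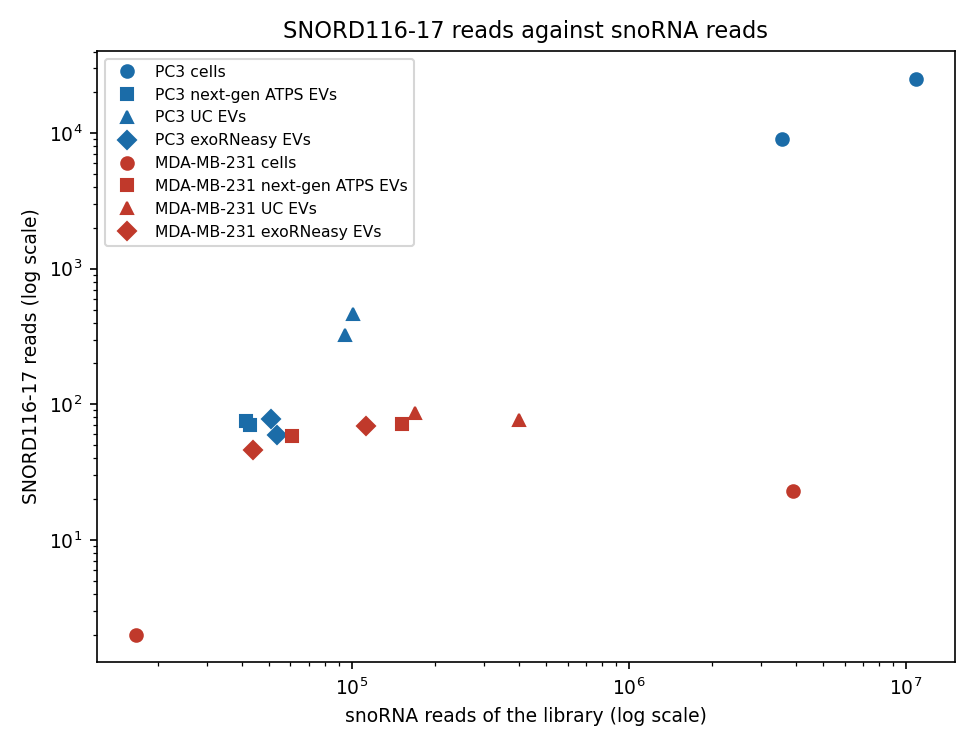
SNORD116-17 reads (y axis) are plotted against the snoRNA reads of the same library (x axis), both on log scales, with 1 point per library. The EV libraries other than PC3 UC lie between 46 and 86 reads across the range of depth, and MDA-MB-231 cells replicate 1 has 23 reads at a depth near that of PC3 cells replicate 1.

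The isolation methods were compared over both lines. Between next-gen ATPS and UC, 0 members were called, where 0% of all entries were, with 2 members at an unadjusted p under 0.05. Between ATPS and exoRNeasy 0 members were called, where 3.36% of entries were, and 0 had an unadjusted p under 0.05. Between UC and exoRNeasy it was 0 against 13.7%, with 2 at an unadjusted p under 0.05. edgeR and DESeq2 called 0 members in all 3. In the same order, 14.6%, 12% and 27.5% of all entries had an unadjusted p under 0.05, edgeR called 2.52%, 5.6% and 15.4% of them and DESeq2 7.32%, 6.74% and 19.7% of those with an adjusted p. The median log2 fold changes of the members were -0.04, 0.06 and 0.13.

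These means over the lines join values that lay apart. In PC3 the UC EVs were the highest EV libraries for SNORD116 as a sum, 44293 and 34752 TPM against 11697 to 19365 TPM for ATPS and exoRNeasy, with no overlap. In MDA-MB-231 the UC EVs had 1811 and 5389 TPM against 5011 to 9309 TPM for the others. A comparison of UC with the mean of the other 2 methods within each line was therefore added after these values were seen. In PC3 the members' median was 1.37 with 0 called, where 0.56% of entries were, 6 at an unadjusted p under 0.05, 13 called by edgeR and 5 by DESeq2. Of all entries these rules took 16.5%, 6.16% and 17.6%. In MDA-MB-231 the median was -1.09 with 0 called, where 3.64% were, 3 at an unadjusted p under 0.05, 2 by edgeR and 9 by DESeq2, beside 17.9%, 13.7% and 25.8% of all entries. For the difference between the lines the median was -2.25 with 0 called in limma, where 0% were, and with 22 at an unadjusted p under 0.05, 14 by edgeR and 17 by DESeq2, beside 17.9%, 4.48% and 16.2% of all entries. DESeq2 shares are of the entries to which it gave an adjusted p. For SNORD116-8 it was -3.14 with a 95% interval of -4.80 to -1.48 (limma adjusted p = 0.105). The limma errors come from 1 spread per entry over all 8 groups, not from the EV libraries alone. That spread includes the MDA-MB-231 cell libraries, which lay at 5.90 and 120 TPM for SNORD116-17. The 0 calls of limma are therefore not read as a lack of difference.

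**Figure D4:**
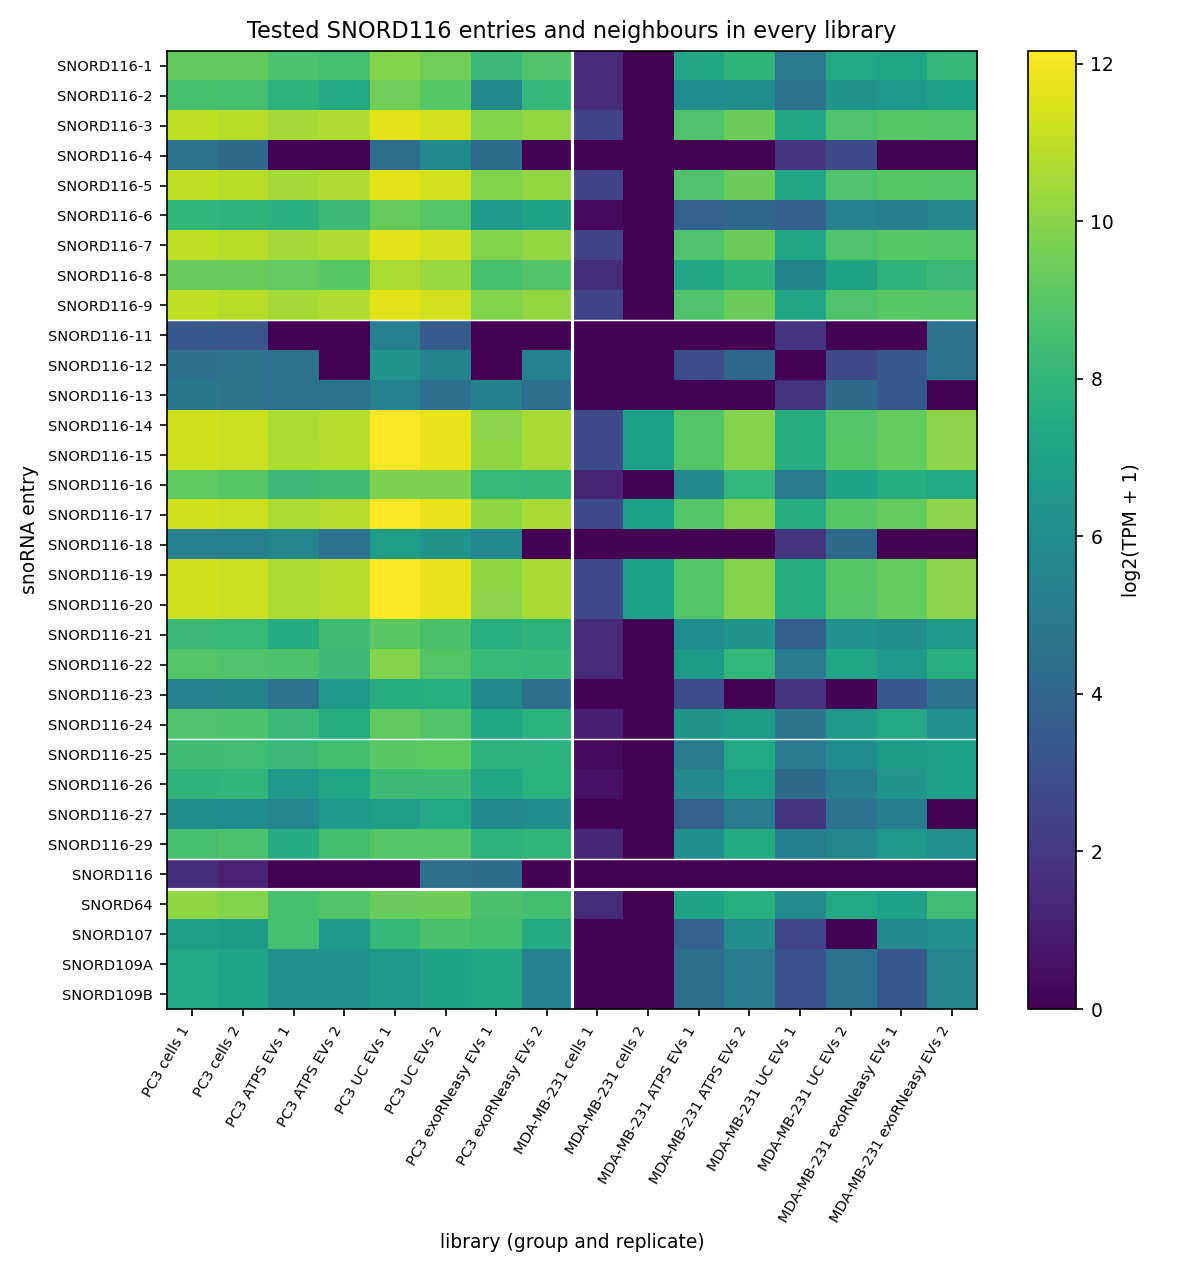
Colour gives log2(TPM + 1) of the 28 tested SNORD116 entries and of 4 other SNHG14 snoRNAs (rows) in the 16 libraries (columns), with white lines between the lines and between groups I, II, III, the entry without a copy number and the other snoRNAs. PC3 UC EVs are the brightest columns and the 2 MDA-MB-231 cell columns the darkest, with the 5 brighter rows of replicate 2 resting on 2 reads each.

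The copies differ from each other at few bases, and their levels fell into steps that went with where they differ. Positions are counted from 1 at the 5′ end, and each token gives the base of the reference copy, the position and the base of the named copy. The copies below are shown because each differs from SNORD116-17, of the same length, at 1 base, in capitals. They lie at chr15:25087662-25087753, chr15:25080142-25080233, chr15:25081287-25081378, chr15:25085385-25085476, chr15:25088804-25088895 and chr15:25089923-25090014 in order.
SNORD116-20: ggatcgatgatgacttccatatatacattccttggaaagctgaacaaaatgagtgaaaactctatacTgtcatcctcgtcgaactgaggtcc
SNORD116-14: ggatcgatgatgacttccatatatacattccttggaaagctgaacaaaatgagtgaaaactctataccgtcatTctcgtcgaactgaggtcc
SNORD116-15: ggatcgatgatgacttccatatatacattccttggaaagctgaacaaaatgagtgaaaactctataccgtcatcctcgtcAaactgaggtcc
SNORD116-18: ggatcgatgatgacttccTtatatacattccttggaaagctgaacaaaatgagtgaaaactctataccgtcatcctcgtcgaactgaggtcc
SNORD116-21: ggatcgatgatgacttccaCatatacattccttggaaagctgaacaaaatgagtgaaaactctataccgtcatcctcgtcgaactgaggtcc
SNORD116-22: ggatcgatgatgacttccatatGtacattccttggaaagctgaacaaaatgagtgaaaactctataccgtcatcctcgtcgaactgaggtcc

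Copies that differ near the 3′ end kept nearly the whole count of the reference. In PC3 cells replicate 1, SNORD116-20 (C68T), SNORD116-14 (C74T) and SNORD116-15 (G81A) had 99.0%, 99.0% and 99.5% of the level of SNORD116-17. Copies with 1 difference near the 5′ end had much less: 1.61% for SNORD116-18 (A19T), 12.1% for SNORD116-21 (T20C) and 19.1% for SNORD116-22 (A23G). The percentages were close in the other PC3 cell library, with 1.64%, 12.2% and 19.3% for the last 3. They were also close in the summed reads of PC3 EVs, 2.34%, 12.7% and 19.0% of 1070 reads of the reference, and of MDA-MB-231 EVs, 0.983%, 10.3% and 21.4% of 407 reads.

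Group I showed the same steps around SNORD116-3. SNORD116-5 and SNORD116-7, which share their values and differ from it by G83A, had 99.9% of its level in PC3 cells replicate 1. SNORD116-1 (C20T, C69A and G74A) had 29.1% and SNORD116-8 (C18T and T22A) had 31.3%, and these 3 are shown with the differing bases in capitals. They lie at chr15:25062333-25062427, chr15:25051477-25051571 and chr15:25070432-25070526 in order.
SNORD116-5: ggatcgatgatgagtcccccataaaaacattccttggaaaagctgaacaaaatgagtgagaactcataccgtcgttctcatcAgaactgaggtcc
SNORD116-1: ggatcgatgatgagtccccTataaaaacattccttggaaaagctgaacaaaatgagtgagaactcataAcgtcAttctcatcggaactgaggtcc
SNORD116-8: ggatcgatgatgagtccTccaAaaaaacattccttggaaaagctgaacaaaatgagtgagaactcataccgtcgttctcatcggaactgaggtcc
Over both groups, the 5 copies whose first difference lay at base 68 or later had 98.9% to 99.9% of the reference in the 2 PC3 cell libraries. The 12 copies whose first difference lay at base 23 or earlier had 0.360% to 34.3%. The copies of one sequence cannot be told apart: 6 of the 30 SNORD116 copies have no stretch of 18 bases of their own among all SNORD116 and SNORD115 copies. Copies that share most of their length may share reads, and the level of a copy is not taken as the output of that copy.

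**Figure D5:**
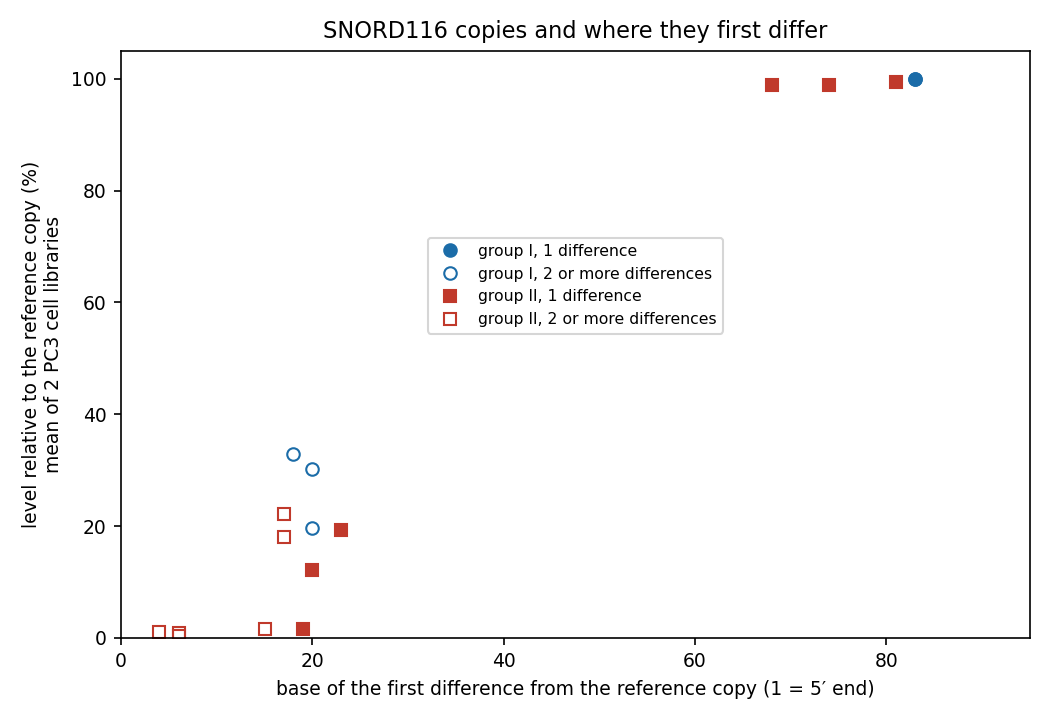
Each point is a SNORD116 copy of the same length as its reference, SNORD116-3 in group I or SNORD116-17 in group II, with the base of its first difference (x axis) and its level as a percentage of the reference (y axis, mean of 2 PC3 cell libraries). Points at base 68 or later lie near 100%, and points at base 23 or earlier lie under 34.3%.

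The rest of SNORD116 was low. SNORD116-10 had 3 reads in each PC3 cell library and 0 elsewhere, and SNORD116-30 had 2 reads in PC3 cells replicate 2 and 0 elsewhere. The entry without a copy number had 7 and 13 reads in PC3 cells, 2 reads in PC3 UC replicate 2, 1 read in PC3 exoRNeasy replicate 1 and 0 in the other libraries. All 30 SNORD116 entries had reads in PC3 cells replicate 2, and 29 in replicate 1. In EVs 24 to 28 had reads in PC3 and 22 to 26 in MDA-MB-231, and in MDA-MB-231 cells 20 and 5 had reads. These counts go with depth. At the depth of the shallowest library the expected number was 0.996 for MDA-MB-231 cells replicate 1. It was 12.6 to 19.8 for MDA-MB-231 EVs and 21.7 to 24.8 for PC3 libraries.

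SNORD115 was near the limit of detection even in PC3 cells. All 26 entries had reads in PC3 cells replicate 2, with 8 reads or fewer each, 0.737 TPM or less. In replicate 1, 18 entries were listed with 1 read each, 0.281 TPM, and these may be the same read. In the other 14 libraries all 26 entries had 0 reads, which allows 0.769 TPM in MDA-MB-231 cells replicate 1 and 7.49 to 72.3 TPM in EVs. SNORD115-11 is 1 of 13 entries with the same value in every library, so the number of entries with reads says little about the number of copies that gave them. The highest of these levels, 0.737 TPM, lies under what 0 reads allow in each of the 14 libraries. With no filter on low values, limma called 18 of the 26 entries lower in MDA-MB-231 cells, and also lower in PC3 EVs, than in PC3 cells. These calls and that of SNORD116-10 had log2 fold changes of -0.62 to -0.30 against libraries at 0 throughout. The share of all entries called without a filter is not given, and entries with equal values are not separate observations.

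The other snoRNAs of the SNHG14 transcript moved with SNORD116 in the line comparison. SNORD64, SNORD107 and the pair SNORD109A and SNORD109B lie at chr15:24985100-24985166, chr15:24981994-24982068, chr15:25041974-25042040 and chr15:25278343-25278409, and SNORD108 had no row. In MDA-MB-231 cells 4 of 4 were called lower than in PC3 cells, where 20.2% of all entries were. In MDA-MB-231 EVs 4 of 4 were lower than in PC3 EVs, where 18.2% of all entries were. Within MDA-MB-231, 4 of 4 were higher in EVs than in cells, where 41.2% of all entries were. SNORD109A and SNORD109B hold 1 set of values, so the pair is 1 observation in these counts. In PC3, 0 of 4 were called between EVs and cells, with 0 at an unadjusted p under 0.05, 3 called by edgeR and 2 by DESeq2. Of all entries these rules took 20.7%, 30.5%, 36.1% and 38.5% in that order. Between UC and the other EVs of MDA-MB-231, 1 of 4 was called, SNORD107 with -4.15 (adjusted p = 0.0286 in limma), where 3.64% of all entries were. The difference of the steps was called for 3 of 4, all but SNORD107 with 2.80 ± 1.25 (SE, limma adjusted p = 0.132). For it 14.6% of all entries were called higher.

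SNORD64 had 1098 and 927 TPM in PC3 cells and 2.05 and 0 TPM in MDA-MB-231 cells, from 8 and 0 reads. In EVs it ranged from 353 to 701 TPM in PC3 and from 57.4 to 342 TPM in MDA-MB-231, so the lines did not overlap. Its log2 fold change between the lines was -9.18 ± 0.68 in cells and -1.70 ± 0.39 in EVs (SE, limma adjusted p = 1.10e-07 and 0.00496). SNORD107 had 111 and 98.7 TPM in PC3 cells and 0 reads in both MDA-MB-231 cell libraries, at least 136-fold higher in PC3 cells against 3 reads of the deeper one. SNORD109A and SNORD109B shared 1 set of values, 161 and 135 TPM in PC3 cells and 0 in MDA-MB-231 cells.

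The families were set beside other C/D box snoRNAs. SNORD113 and SNORD114 are the imprinted snoRNA clusters of 14q32, made from the maternal chromosome. Of their 30 entries 20 were tested. They too were nearly without reads in MDA-MB-231 cells, with 1 read at most each in replicate 1 and 0 in replicate 2, but they were also low in PC3 cells, with 3 to 126 reads in replicate 1 and 8 to 269 in replicate 2. In MDA-MB-231 cells limma called 3 lower, with a median log2 fold change of -2.86 and 12 at an unadjusted p under 0.05, while edgeR called 19 and DESeq2 called 1. Of all 357 entries limma called 20.2% lower. In either direction, 123 had an unadjusted p under 0.05, edgeR called 111 and DESeq2 81, and of these calls 79 by edgeR and 59 by DESeq2 were lower. A difference between the families in this comparison was not tested. In MDA-MB-231 EVs 3 were lower with a median of -1.31, with 0 by edgeR and 0 by DESeq2. Of all entries 18.2% were lower there in limma. In either direction edgeR called 133 and DESeq2 132, of which 50 and 61 were lower. Between MDA-MB-231 EVs and cells 0 were called with a median of 0.48 (0 at an unadjusted p under 0.05, 0 by edgeR and 0 by DESeq2). Of all entries 41.2% were called higher in limma. In either direction 186 had an unadjusted p under 0.05, edgeR called 212 and DESeq2 177. Among all 184 other SNORD entries tested, which include these and the 4 other snoRNAs of SNHG14, 37 were lower and 8 higher in MDA-MB-231 cells, with a median of -0.54. Of all 357 entries tested, 72 were lower and 8 higher.

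The 3 other entries whose log2(TPM + 1) over the 16 libraries was most like the summed SNORD116 level were SNORD53B, SNORD109B and SNORD109A, with Pearson's r of 0.94, 0.93 and 0.93. The last 2 hold 1 set of values. SNORD64 came next with an r of 0.92, and its Spearman's rho of 0.95 lay above the 0.88 of each of these 3. These coefficients describe 16 libraries that fall into 2 lines and share their totals. SNORD53B had 4029 and 3888 TPM in PC3 cells and 871 and 962 TPM in MDA-MB-231 cells.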

How the data were processed

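Small RNA libraries (NEBNext kit, Illumina NextSeq) were aligned by the authors with STAR to hg38 and annotated with COMPSRA (versions not given in the sources used here). Values deposited by them, named TPM, are CPM over the snoRNA reads of a library without a length term, and 100% were whole multiples of 1 read within 0.1 read, so reads were recovered. The study states that reads with several matches were weighted, but no fractional weights show. The miRNA values deposited by the authors (CPM in the same way) were used for markers only, and the circRNA values were not used.

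Groups came from the sample labels. Entries with 1 TPM in at least 2 of 16 libraries (357 of 413) were tested with limma 3.58.1 (R 4.3.3, trend and robust options) on log2(TPM + 1), with 8 group means and a threshold of 0.05 on the Benjamini-Hochberg adjusted p-value. edgeR 4.0.16 and DESeq2 1.42.0 on recovered reads, other pseudocounts, filters and scalings, the replicate block and leaving out each library were alternatives. The limma fit was also run on simulated reads with 1 dispersion for all libraries. Its outcome is not given, and it is no check on the unequal spread of the real libraries. The plan assumed TPM with a length term, and the test was kept since CPM also needs a log scale. Intervals are exact (Clopper-Pearson, 95%), floors are 3 reads, and both cover counting error only. Replicates of every group differed beyond sampling noise.

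Named entries were the 10 members with the highest mean TPM, members called in a comparison, SNORD115 by range, the other SNHG14 snoRNAs and the 3 entries most like the SNORD116 sum. Members and lists were chosen with earlier results of these data known. Sequences and coordinates are from hg38 and GENCODE v44.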

Additional observations from a re-analysis of the deposited data

Results flagged for a closer look

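The step from cells to EVs differed between the lines, by the interaction term of the limma fit, for 20 members and 3 neighbours. Of all entries tested, 14.6% were called higher. On the log2 scale, MDA-MB-231 minus PC3, the difference was 7.68 for SNORD116-5 and SNORD116-7, 7.67 for SNORD116-3 and SNORD116-9, 6.64 for SNORD116-1, 6.40 for SNORD116-8, 5.92 for SNORD116-2 and 4.49 for SNORD116-6. In group II it was 6.51 for SNORD116-16, 6.44 for SNORD116-24, 6.28 for SNORD116-22, 5.05 for SNORD116-21, 4.49 for SNORD116-15, SNORD116-17 and SNORD116-19, and 4.48 for SNORD116-14 and SNORD116-20. In group III it was 5.98 for SNORD116-25, 5.96 for SNORD116-26 and 5.88 for SNORD116-29. Among the neighbours it was 7.48 for SNORD64 and 5.15 for SNORD109A and SNORD109B. The size rests on the 2 MDA-MB-231 cell libraries: for SNORD116-17 it was 6.56 without replicate 2 and 2.42 without replicate 1. SNORD116-17 had 2 reads in replicate 2. The values of entries with 0 reads there, such as SNORD116-3, rest in part on that 0. Over replicate 1 alone, the rise from cells to EVs was 107-fold for SNORD116-17 and 98.9-fold for SNORD116-3.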

How the results depend on the processing

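The numbers of members called stood within 1.5 times in the comparisons of lines and materials under most alternatives. Without a filter, 44, 19 and 39 members were called between the lines in cells, between EVs and cells in PC3 and for the difference of the steps; the calls this adds are SNORD116-10 and 18 SNORD115 entries, under 1 TPM in every library. A pseudocount of 0.1 left 14 between the lines in EVs. Quantile normalization left 10 for the difference of the steps. The share of all entries called is not given for these settings, so the counts are not set against it. For PC3 EVs against cells, quantile normalization, TMM scaling and edgeR each called 1 member. The cause was not tested.

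Leaving out 1 library gave 20 to 26 calls between the lines in cells, 18 to 26 in EVs, 0 to 1 between EVs and cells in PC3, 20 to 21 in MDA-MB-231, 20 to 21 for the difference of the steps, and 0, 0 and 0 to 2 for the 3 pairs of methods. A group left with 1 library was assumed to vary like the others. Without PC3 exoRNeasy replicate 1 there was 1 call for PC3 EVs against cells and 2 for UC against exoRNeasy, and without MDA-MB-231 exoRNeasy replicate 2 there was 1 for the latter. The added UC contrasts gave 3, 1 and 6 calls with a pseudocount of 10, and 11 for the difference between the lines when one or the other of the MDA-MB-231 cell libraries was left out. Quantile normalization gave 0, 5 and 10.

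The summed SNORD116 log2 ratio ran from -8.64 to -5.36 between the lines in cells, -2.14 to -1.80 in EVs, -0.15 to 0.04 between EVs and cells in PC3 and 3.35 to 6.63 in MDA-MB-231 when 1 library was left out. For PC3 EVs against cells TMM scaling moved it from -0.05 to -1.31. The members with reads per library, 5 to 56, came to 24.8 at most at the depth of the shallowest library, and 0 to 45 had 3 reads or more.

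Replicate numbers were not taken as pairing the libraries. Over 28 pairs of groups the correlation of deviations ran from -0.21 to 0.27, and 5 were over 0.1. Of those 5, 3 were the 3 pairs of MDA-MB-231 EV groups, at 0.22 to 0.27, as a hint from the data, since no label ties the numbers to a culture or day. With the replicate block, 25, 24, 0, 21 and 20 members were called in the first 5 comparisons, as without it. A replicate block within MDA-MB-231 EVs only, chosen after seeing the data, gave 25, 23, 0, 21 and 20, then 1, 0 and 0 for the pairs of methods, with SNORD116-4 called between ATPS and UC, and 2, 2 and 1 for the added UC contrasts, SNORD116-4 and SNORD116-11 in PC3, SNORD116-8 and SNORD116-26 in MDA-MB-231 and SNORD116-8 for the difference. Of 106 called pairs of an entry and a comparison, 0 changed sign, 21 fell short of the threshold with quantile normalization, 14 with a pseudocount of 0.1, 4 with a pseudocount of 10, 4 with TMM scaling and 2 with DESeq2. With 1 entry for each set of equal values, an alternative chosen after seeing the data, 22, 21, 0, 18 and 17 were called.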
